A study of Mus musculus with 22 samples.

Results

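The 40 genes described here serve protein folding in the endoplasmic reticulum (ER), the removal of misfolded proteins from it, and the signalling that adjusts both. They were chosen by symbol from those roles, with earlier results of these data known: 11 ER chaperones and co-chaperones, 7 genes of disulfide bond formation, 9 genes of ER-associated degradation (ERAD), 5 stress sensors and factors including Xbp1, and 8 genes of the ATF4 arm. A probe was annotated to 39 of the 40, with 71 probes in all, and Dnajb11 had none. For 35 of the 40 at least 1 probe passed the filter for detection, among 10705 named genes that did. Each gene was represented by its brightest tested probe.

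The genes were measured on 22 Illumina bead arrays of epithelial cells shaken from the mouse colon in 20 mM EDTA for 25 min, with no sorting step named. The mice, of strain BALB/c and with male as the labelled sex, had an age of 6 to 10 weeks. Their genotype was wild type (WT) or knockout for the polymeric Ig receptor (pIgR; KO), the receptor that carries IgA antibodies across the epithelium into the gut lumen. WT_untreated and WT_antibiotic hold 5 arrays each, and KO_untreated and KO_antibiotic 6 each, where the antibiotic groups had been treated for 17 days with antibiotics that the labels do not name. The KO is named as a plain knockout, with no tissue restriction, and whether an array holds 1 mouse or a pool is not given, so the p-values cover the spread among the arrays and may cover technical spread alone.

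Secreted and membrane proteins fold in the ER with the help of chaperones such as BiP (Hspa5), lectin chaperones such as calreticulin and the protein disulfide isomerases. When unfolded proteins build up, the sensors IRE1, ATF6 and PERK raise the supply of these helpers, through the factors XBP1, ATF6 and ATF4. ATF4 also drives genes of amino acid supply, and it answers other stresses than those of the ER. In the colon, goblet cells make large secreted mucins and carry a form of IRE1 of their own, encoded by Ern2.

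Some promoters of such genes carry elements that the factors are known to bind. Windows from 250 bases before to 50 after the start were available from RefSeq (GRCm38.p6) for 35 of the 40 genes and for 27025 genes in all. The ER stress response element was searched on both strands as CCAAT and CCACG with 9 bases between them, and 10 of the 35 genes (28.571%) held it, against 0.137% of all genes with a window. The CARE element of ATF4 target genes was searched as TGATGNAA, and 4 of the 35 (11.429%) held it, against 4.511% of all. A match is a description of the letters and not a measured binding site. Since the genes were chosen for roles in which such elements are known, the shares describe the list and test nothing. The stretches below show both elements in capitals, with flanking bases in lower case, in the direction of the gene. Hspa5, Calr, Pdia6, Creld2 and Syvn1 are shown because they changed in these mice, Dnajc3 because it holds the same element and did not pass the test, and Asns, Chac1 and Herpud1 for the ATF4 element. Herpud1 also holds the shorter element of ATTGG and CCACG with 1 base between them, its second run of capitals, which 2 of the 35 genes (5.714%) and 0.044% of all genes held.
Hspa5 (chr2:34772013-34772055, plus strand): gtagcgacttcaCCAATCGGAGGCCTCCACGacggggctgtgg
Calr (chr8:84847063-84847105, minus strand): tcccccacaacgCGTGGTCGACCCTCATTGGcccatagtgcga
Pdia6 (chr12:17266479-17266521, plus strand): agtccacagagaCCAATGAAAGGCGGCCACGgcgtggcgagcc
Creld2 (chr15:88819508-88819550, plus strand): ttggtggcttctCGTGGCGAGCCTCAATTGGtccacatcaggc
Syvn1 (chr19:6046520-6046562, plus strand): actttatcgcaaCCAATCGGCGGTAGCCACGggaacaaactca
Dnajc3 (chr14:118937815-118937857, plus strand): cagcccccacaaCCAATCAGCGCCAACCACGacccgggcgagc
Asns (chr6:7693213-7693244, minus strand): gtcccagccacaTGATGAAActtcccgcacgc
Chac1 (chr2:119351037-119351068, plus strand): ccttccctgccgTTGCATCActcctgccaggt
Herpud1 (chr8:94386305-94386399, plus strand): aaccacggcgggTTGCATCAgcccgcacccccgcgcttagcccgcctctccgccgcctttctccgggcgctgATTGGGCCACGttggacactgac
In these stretches the element of Calr and Creld2 reads on the opposite strand, as CGTGG first and ATTGG last, and so do the CARE elements of Chac1 and Herpud1.

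Between 15975 and 18388 of 45281 probes were detected per array (detection p under 0.05), and 19993 were tested. Of the 13 epithelial markers, such as Epcam, Cdh1 and Krt8, all were detected on all arrays. Descriptions of KO_untreated 2 to 6 carry a suffix that KO_untreated 1 and the other groups lack, so what the suffix stands for and the KO_untreated group cannot be told apart beyond that 1 array. KO_untreated 1 and 2 share the number that opens their descriptions, and their levels correlated at 0.963 over the tested probes, the lowest of the pairs within that group. Whether they come from 1 animal is not given, and if so KO_untreated holds 5 animals. KO minus WT in untreated mice gave 9 genes of the 35 without array 1 and 12 without array 2 (4.81% and 11.5% of all genes). Antibiotics in KO gave 21 and 17 (13.4% and 12.7% of all genes). WT_untreated 3 and KO_untreated 6 also share an opening number, across genotypes. The probe named for Pigr, the targeted gene, had log2 levels of 11.61 to 12.50 and 11.32 to 12.01 in the WT groups and of 8.93 to 10.73 and 8.74 to 10.25 in the KO groups, untreated first, so all KO arrays were below all WT arrays, and whether the probe lies in the deleted part is not given. All 4 comparisons below come from 1 fit, and each untreated group serves in 2 of them, so the comparisons are set side by side and not counted as separate evidence.

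Part of the ER and ATF4 genes stood higher in untreated KO than in untreated WT mice. Of the 35 tested genes, 12 rose in KO_untreated at an adjusted p under 0.05 and 0 fell, where 6.27% of all tested genes rose and 5.74% fell (12% in all). Their median log2 difference was 0.40, against 0.050 over all genes. Under antibiotics 0 of the 35 differed between KO and WT (median 0.12), while 0.0187% of all genes did. An unadjusted p under 0.05 by limma was found for 2 of the 35 and for 347 of all 10705 genes. Of the 35, 0 passed the adjusted threshold under any other setting tried. Antibiotics lowered 9 of the 35 and raised 0 in WT (2.91% of all genes fell, 2.66% rose), and lowered 18 and raised 0 in KO (8.6% of all genes fell, 6.16% rose). The median differences with antibiotics were -0.47 in WT and -0.53 in KO, against 0.017 and 0.0094 over all genes. Groups of arrays that did not overlap numbered 0 higher and 7 lower genes of the 35 for antibiotics in WT (3.49% and 3.26% of all genes), and 0 and 18 for antibiotics in KO (2.71% and 4.66%). Between KO_antibiotic and WT_antibiotic they numbered 0 and 0 (0.206% and 0.0747%). The 12 became 6 with median scaling over all probes and 1 with KO_untreated 1 as the only KO array, which also took the 18 to 5. The same scaling took the 9 to 1, and the medians of 0.40 and 0.12 to 0.57 and 0.25. The share of all genes past the threshold fell in these fits too. With that scaling it was 1.8% for KO minus WT in untreated mice and 1.49% for antibiotics in WT. The 9 became 3 without any one of WT_untreated 3 or WT_antibiotic 1 or 5, and 5 without WT_untreated 4 or WT_antibiotic 4. Without one of these arrays 2.36% to 3.19% of all genes changed, against 5.57% with all arrays.

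**Figure D1:**
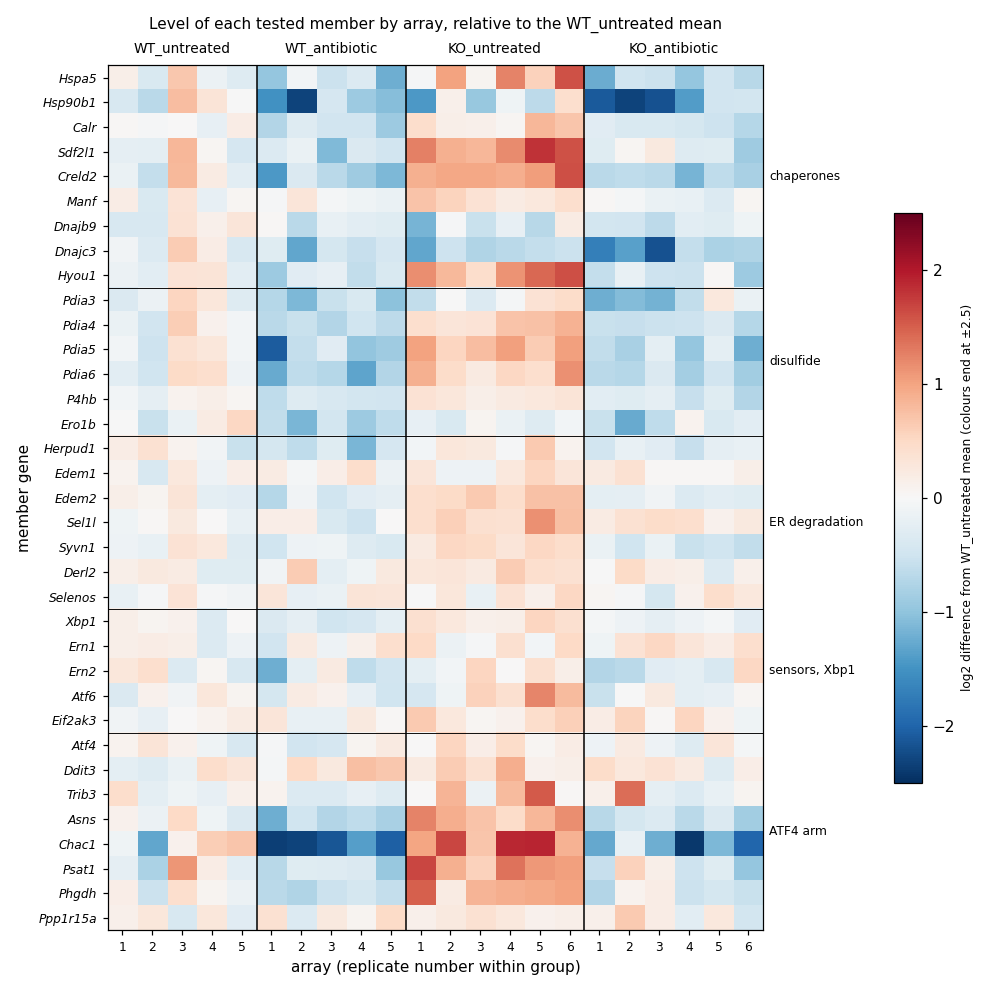
Log2 level of each of the 35 tested genes (rows, grouped by role) on each of the 22 arrays (columns, grouped by genotype and treatment), as the difference from the WT_untreated mean, with red above and blue below it. The 6 KO_untreated columns are red for most chaperones, disulfide genes and amino acid genes, while the antibiotic columns are mostly blue.

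Taken array by array, the median of the 35 genes relative to the WT_untreated mean lay between -0.24 and 0.31 in WT_untreated, 0.25 and 0.54 in KO_untreated, -0.50 and -0.31 in WT_antibiotic and -0.45 and -0.19 in KO_antibiotic. Within WT_untreated, array 3 was the highest with 0.31, which lies inside the KO_untreated range. KO_untreated 1, the array with no suffix, was at 0.36, also inside the range of its group. On that array the median of all tested genes was 0.13, the highest of the 22 arrays, against 0.011 to 0.060 on the other KO_untreated arrays. Every antibiotic array of KO was below every untreated KO array, and the WT_antibiotic arrays were all below the WT_untreated ones. The median of all tested genes stayed between -0.02 and 0.13 on every array.

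**Figure D2:**
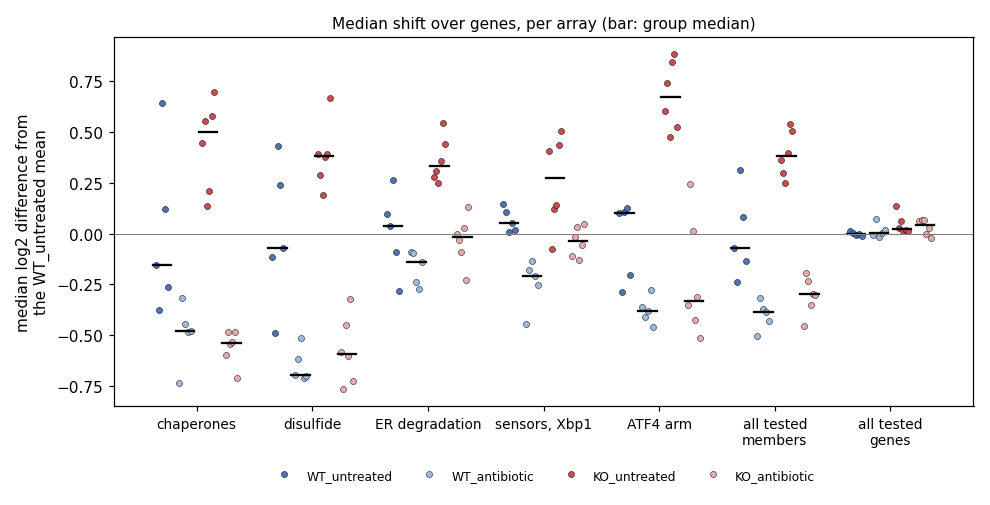
Median log2 difference from the WT_untreated mean over the genes of each role, over all 35 tested genes and over all tested genes (horizontal axis), with 1 point per array and a bar at each group's median. The KO_untreated points of the ATF4 arm lie between 0.48 and 0.88, and the all-gene points stay near 0.

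Of 9 tested chaperones and co-chaperones, Hyou1, Sdf2l1 and Creld2 rose in KO_untreated (6.27% of all genes), and the other 6 did not pass. With antibiotics 2 fell in WT (2.91% of all genes) and 6 in KO (8.6%). Hyou1, the nucleotide exchange factor of BiP also called GRP170, had log2 levels of 5.79, 5.79, 5.90, 6.37 and 6.40 on the WT_untreated arrays. Its KO_untreated levels ran from 6.50 to 7.65 with a median of 7.19, above every WT_untreated array. The difference was 2.14-fold (log2 1.10, SE 0.20, adjusted p = 0.00293). With antibiotics Hyou1 was at 5.13, 5.43, 5.67, 5.77 and 5.85 in WT, where the difference did not pass the test (log2 -0.48, SE 0.21, adjusted p = 0.204). In KO_antibiotic it was at 5.15 to 6.07 with a median of 5.52, below every KO_untreated array, a fall of 2.92-fold (log2 -1.55, SE 0.19, adjusted p = 9.19e-06).

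Sdf2l1 encodes an ER protein that partners the co-chaperone encoded by Dnajb11. It lay at 7.20, 7.38, 7.39, 7.66 and 8.45 in WT_untreated and at 8.45 to 9.42 with a median of 8.84 in KO_untreated. The highest WT_untreated value, that of array 3, and the lowest KO_untreated value both round to 8.45, and the groups did not overlap. The rise was 2.39-fold (log2 1.26, SE 0.23, adjusted p = 0.00296). With antibiotics the levels were 6.51, 7.14, 7.25, 7.28 and 7.44 in WT (log2 -0.49, SE 0.24, adjusted p = 0.267, not past the threshold) and 6.72 to 7.85 with a median of 7.31 in KO, where every array was below every KO_untreated one (log2 -1.52, SE 0.22, adjusted p = 5.28e-05).

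Creld2, which encodes an ER-resident protein that is induced by ER stress, had, with Asns, the smallest adjusted p of the 35 genes for antibiotics in KO. Its levels were 8.59, 8.92, 9.03, 9.40 and 9.99 in WT_untreated and 10.09 to 10.80 with a median of 10.16 in KO_untreated, with no overlap, a rise of 2.09-fold (log2 1.07, SE 0.21, adjusted p = 0.00521). They were 7.74, 8.07, 8.31, 8.52 and 8.82 in WT_antibiotic, where 4 of 5 arrays lay below all WT_untreated ones (log2 -0.90, SE 0.22, adjusted p = 0.0204). This call was lost without any one of WT_untreated 3 or 4 or WT_antibiotic 1 or 5, with an adjusted p of up to 0.0749. In KO_antibiotic they were 8.03 to 8.56 with a median of 8.52, a fall of 3.55-fold (log2 -1.83, SE 0.20, adjusted p = 2.19e-06). The second probe of Creld2 gave log2 1.08 for KO minus WT in untreated mice and -1.89 for antibiotics in KO, both past the threshold.

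Hspa5, which encodes BiP itself, differed more between arrays of a group. Its WT_untreated levels were 5.84, 5.90, 6.08, 6.37 and 6.90 and its KO_untreated levels 6.18 to 7.81 with a median of 7.01, and the groups overlapped (log2 0.74, SE 0.27, adjusted p = 0.0729, 95% interval 0.19 to 1.3). With antibiotics Hspa5 was at 5.00, 5.26, 5.69, 5.87 and 6.14 in WT (log2 -0.63, SE 0.28, adjusted p = 0.219) and at 4.97 to 5.73 with a median of 5.60 in KO. Every KO_antibiotic array was below every KO_untreated array, and this fall of 2.78-fold passed the test (log2 -1.48, SE 0.26, adjusted p = 0.00035). The KO minus WT difference of untreated mice thus missed the threshold for BiP, and with KO_untreated 1 as the only KO array its difference was -0.033.

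Calr, the calcium-binding lectin chaperone calreticulin, fell with antibiotics in both genotypes. It was at 8.66, 8.84, 8.88, 8.89 and 9.06 in WT_untreated and 7.96, 8.13, 8.38, 8.38 and 8.55 in WT_antibiotic, without overlap (log2 -0.58, SE 0.15, adjusted p = 0.0283). The WT call was lost without any one of WT_untreated 1, 3 or 5 or WT_antibiotic 1, 4 or 5, with an adjusted p of up to 0.0921. In KO the levels were 8.92 to 9.70 with a median of 9.16 in untreated mice and 8.16 to 8.57 with a median of 8.45 with antibiotics, again without overlap (log2 -0.84, SE 0.14, adjusted p = 0.000221). Manf, a small ER protein that binds BiP, fell in KO by 1.44-fold (log2 -0.53, SE 0.13, adjusted p = 0.00817), although it was detected on 12 arrays of the 22 only.

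Other chaperones had KO minus WT differences below 0. Hsp90b1, the ER form of HSP90 (GRP94), had one of -0.44 (adjusted p = 0.472) in untreated mice, with levels of 10.65 to 12.09 in WT_untreated and 9.88 to 11.74 in KO_untreated. With antibiotics its differences were -1.25 in WT and -1.06 in KO, large but with a wide spread, and neither passed (adjusted p = 0.0796 and 0.0662). Dnajc3 (p58IPK), a co-chaperone of BiP that also restrains PERK, was at 7.45, 7.50, 7.76, 8.03 and 8.48 in WT_untreated and 6.54 to 7.32 with a median of 7.21 in KO_untreated. It was the 1 tested gene of the 35 with every KO_untreated array below every WT_untreated one, although its difference missed the threshold (log2 -0.73, SE 0.26, adjusted p = 0.0657). Of the 35, 8 had every KO_untreated array above, where 4.82% of all genes did and 5.4% were wholly below. Dnajc3 passed the threshold as lower in 6 of 12 other settings. With antibiotics its differences were -0.61 in WT and -0.50 in KO (adjusted p = 0.207 and 0.21). Dnajb9 (ERdj4), which hands misfolded clients to degradation, differed by -0.41 (adjusted p = 0.188). Canx, the membrane-bound relative of calreticulin, was detected on no array.

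**Figure D3:**
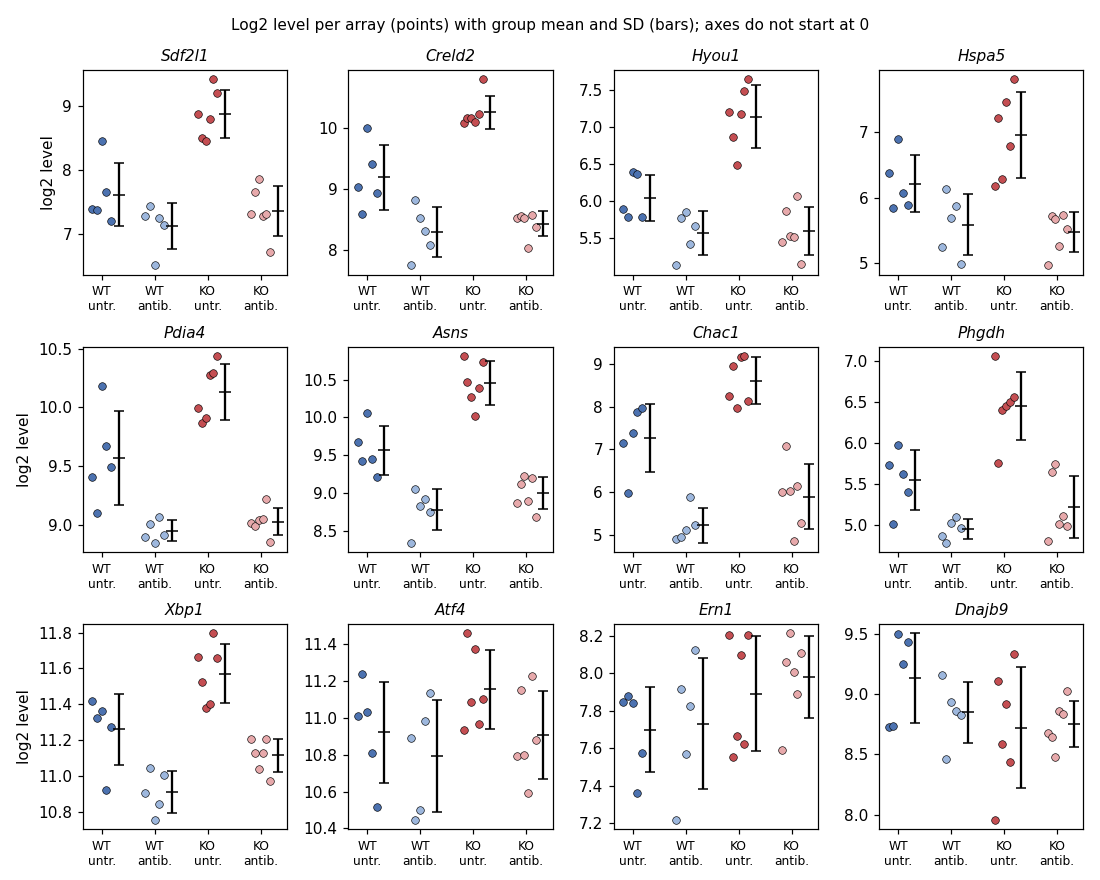
Log2 level of 12 genes on each array (points, coloured by group as named on the horizontal axis), with the group mean and SD as a bar. Sdf2l1, Creld2, Hyou1, Asns, Chac1 and Phgdh stand higher in KO_untreated, while Ern1 and Atf4 overlap among all 4 groups.

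Disulfide bonds are made by isomerases and the oxidases that recharge them. Of 6 tested genes, 3 rose in KO_untreated (6.27% of all genes), 5 fell in WT_antibiotic (2.91%) and 4 fell in KO_antibiotic (8.6%). All 5 WT calls were lost with median scaling over all probes. Pdia4, an isomerase of the BiP complex, had levels of 9.10, 9.41, 9.49, 9.67 and 10.18 in WT_untreated and 9.87 to 10.44 with a median of 10.13 in KO_untreated. Array 3 of WT_untreated lay inside the KO range, so these groups overlapped (log2 0.56, SE 0.15, adjusted p = 0.0237). This call was lost without any one of WT_untreated 1, 2 or 5 or KO_untreated 5, with an adjusted p of up to 0.0656. With antibiotics Pdia4 was at 8.85, 8.90, 8.91, 9.01 and 9.07 in WT (log2 -0.62, SE 0.16, adjusted p = 0.024) and 8.85 to 9.22 with a median of 9.03 in KO (log2 -1.10, SE 0.14, adjusted p = 1.5e-05). Both antibiotic groups lay below all untreated arrays of their genotype. The WT call of Pdia4 was lost without any one of WT_untreated 3 or 4 or WT_antibiotic 1 or 5, with an adjusted p of up to 0.0863.

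Pdia5 was at 8.65, 9.11, 9.11, 9.46 and 9.55 in WT_untreated and 9.72 to 10.20 with a median of 10.06 in KO_untreated, with no overlap (log2 0.83, SE 0.24, adjusted p = 0.0331). All 3 of its probes rose, by log2 0.83 to 1.01. With antibiotics it stood at 7.10, 8.19, 8.29, 8.58 and 8.88 in WT (log2 -0.97, SE 0.25, adjusted p = 0.0283), where 1 of the 3 probes passed the test, and at 7.96 to 8.94 with a median of 8.46 in KO (log2 -1.52, SE 0.23, adjusted p = 9.02e-05). All KO_antibiotic arrays were below all KO_untreated ones, and all 3 probes fell there. Its rise was lost without any one of WT_untreated 1, 2 or 5 or KO_untreated 1, 4, 5 or 6, with an adjusted p of up to 0.0817. Its fall in WT was lost without any one of WT_untreated 1, 3 or 4 or WT_antibiotic 1, 4 or 5, with an adjusted p of up to 0.0923.

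Pdia6, an isomerase that also acts on the sensors IRE1 and PERK, lay at 6.75, 6.99, 7.12, 7.67 and 7.73 in WT_untreated and 7.48 to 8.39 with a median of 7.74 in KO_untreated. The groups overlapped and the difference was close to the threshold (log2 0.61, SE 0.19, adjusted p = 0.0449). The call was lost without any one of WT_untreated 1, 2 or 5 or KO_untreated 1, 4, 5 or 6, with an adjusted p of up to 0.116, and the second tested probe of Pdia6 gave 0.090. The falls with antibiotics were without overlap, to 5.94, 5.99, 6.51, 6.55 and 6.62 in WT (log2 -0.93, SE 0.20, adjusted p = 0.0091) and 6.38 to 6.89 with a median of 6.56 in KO (log2 -1.27, SE 0.18, adjusted p = 5.49e-05), where the second probe gave -0.32 and -0.46 and did not pass.

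P4hb, the classical protein disulfide isomerase, was at 12.24, 12.40, 12.52, 12.56 and 12.61 in WT_untreated and 11.82, 11.98, 12.02, 12.07 and 12.14 in WT_antibiotic, without overlap (log2 -0.46, SE 0.12, adjusted p = 0.0264). This call was lost without any one of WT_untreated 3 or 4 or WT_antibiotic 1, 4 or 5, with an adjusted p of up to 0.077. In KO it was at 12.62 to 12.83 with a median of 12.74 in untreated mice and 11.74 to 12.25 with a median of 12.17 with antibiotics, also without overlap (log2 -0.66, SE 0.11, adjusted p = 0.000179). Ero1b, an oxidase that recharges the isomerases, was at 5.27, 5.66, 5.82, 6.02 and 6.35 in WT_untreated and 4.68, 4.91, 5.18, 5.21 and 5.36 in WT_antibiotic (log2 -0.75, SE 0.21, adjusted p = 0.0357). The groups overlapped, and the call was lost without any one of WT_untreated 1, 3, 4 or 5 or WT_antibiotic 1, 2, 4 or 5, with an adjusted p of up to 0.101. In KO the difference of Ero1b was -0.32 (adjusted p = 0.313). Pdia3, the isomerase of the calreticulin cycle, did not pass the threshold with antibiotics in either genotype, although its WT groups did not overlap (-0.76 and -0.64, adjusted p = 0.099 and 0.0873). Ero1a, the other oxidase, was not detected.

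The degradation genes find misfolded proteins, pull them out of the ER and mark them with ubiquitin. Of 7 tested, 2 rose in KO_untreated (6.27% of all genes), 0 changed in WT_antibiotic (5.57%) and 3 fell in KO_antibiotic (8.6%). Edem2, a mannosidase that marks misfolded glycoproteins for removal, was at 10.46, 10.50, 10.80, 10.90 and 11.06 in WT_untreated and 11.17 to 11.48 with a median of 11.31 in KO_untreated, with no overlap (log2 0.58, SE 0.13, adjusted p = 0.0109). It was at 10.39 to 10.66 with a median of 10.50 in KO_antibiotic, below every KO_untreated array (log2 -0.82, SE 0.12, adjusted p = 8.06e-05), and at 10.04, 10.24, 10.47, 10.52 and 10.65 in WT_antibiotic (log2 -0.36, SE 0.14, adjusted p = 0.132, not past the threshold). All 4 probes of Edem2 passed the test in the same direction in both KO comparisons.

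Sel1l, the adaptor of the HRD1 ubiquitin ligase, was at 7.57, 7.64, 7.77, 7.79 and 8.0 in WT_untreated and 8.14 to 8.90 with a median of 8.26 in KO_untreated without overlap (log2 0.62, SE 0.15, adjusted p = 0.0155). Its other 2 tested probes gave -0.11 and 0.13, so the probes disagree. Syvn1, the ligase HRD1 itself, missed the threshold in untreated mice (log2 0.41, SE 0.14, adjusted p = 0.0514). Syvn1 was at 11.26 to 11.56 with a median of 11.49 in KO_untreated and 10.42 to 10.88 with a median of 10.53 in KO_antibiotic, a fall without overlap (log2 -0.83, SE 0.13, adjusted p = 0.000116). Herpud1, a scaffold of the same ligase, fell in KO (log2 -0.52, SE 0.16, adjusted p = 0.0373), and this was lost without any one of KO_untreated 2, 3 or 5 or KO_antibiotic 1, 3 or 4, with an adjusted p of up to 0.102. Its second probe fell more clearly (log2 -0.78, adjusted p = 0.00142) and rose in KO_untreated (0.55, adjusted p = 0.0353), where the first gave 0.20. Edem1, Derl2 and Selenos differed by between -0.27 and 0.37 in the 4 comparisons, and none passed. Derl1 was detected on no array, and Derl3, a derlin abundant in secretory cells, on 1 KO_untreated and 1 KO_antibiotic array.

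**Figure D4:**
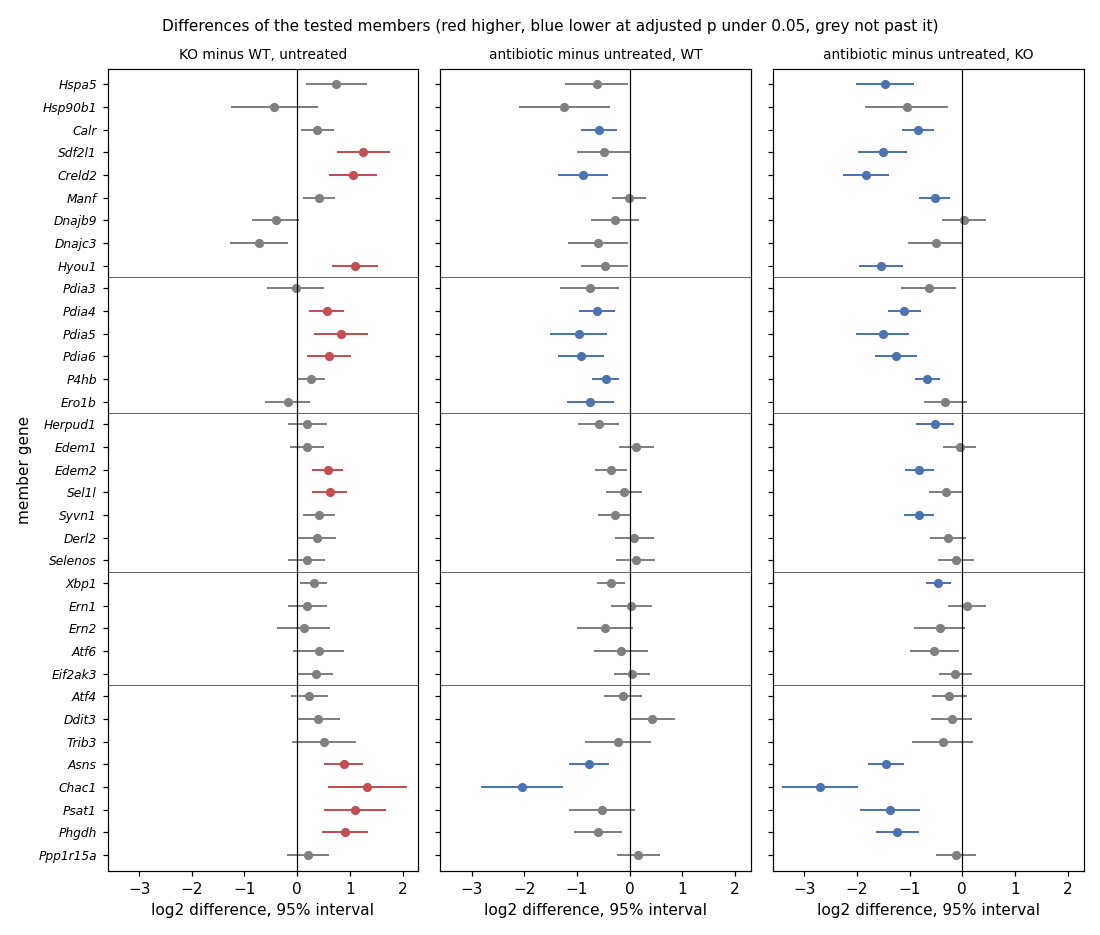
Log2 difference with its 95% interval for each of the 35 tested genes (rows, by role) in 3 comparisons (panels), red where higher and blue where lower at an adjusted p under 0.05, grey otherwise. The coloured points are all to the right of 0 in the first panel (12 genes) and to the left in the other panels (9 and 18 genes).

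The sensors report unfolded proteins from the ER to the nucleus. Of 5 tested, 0 passed the test in untreated mice or in WT_antibiotic, and 1, Xbp1, fell in KO_antibiotic, where 12%, 5.57% and 14.8% of all genes changed in these comparisons, so that so few genes do not stand apart from the background. Xbp1 encodes the factor made active by IRE1 through splicing, and the level of its probe does not tell spliced from unspliced message. It was at 10.92, 11.27, 11.32, 11.36 and 11.42 in WT_untreated and 11.38 to 11.80 with a median of 11.59 in KO_untreated, which overlapped (log2 0.31, SE 0.11, adjusted p = 0.0765). With antibiotics Xbp1 was at 10.75, 10.84, 10.91, 11.01 and 11.04 in WT (log2 -0.35, SE 0.12, adjusted p = 0.093) and 10.97 to 11.21 with a median of 11.13 in KO. All 6 KO_antibiotic arrays were below all KO_untreated arrays (log2 -0.46, SE 0.11, adjusted p = 0.00602), a fall of 1.37-fold.

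Ern1, which encodes the widely expressed IRE1 alpha, was at 7.36, 7.57, 7.84, 7.85 and 7.88 in WT_untreated and 7.22, 7.57, 7.83, 7.92 and 8.12 in WT_antibiotic, and at 7.55 to 8.21 with a median of 7.88 in KO_untreated and 7.59 to 8.21 with a median of 8.03 in KO_antibiotic. All 4 groups overlapped, with a KO minus WT difference of 0.19 in untreated mice (95% interval -0.16 to 0.54, adjusted p = 0.466). Ern2, the IRE1 beta of mucus-making epithelium, was at 11.97, 12.03, 12.43, 12.65 and 12.79 in WT_untreated and 11.16, 11.74, 11.90, 12.14 and 12.60 in WT_antibiotic. In KO its levels were 12.12 to 12.91 with a median of 12.46 without and 11.65 to 12.89 with a median of 12.03 with antibiotics. The antibiotic differences of Ern2 were -0.47 in WT (95% interval -0.97 to 0.038) and -0.43 in KO (-0.89 to 0.034), and neither passed (adjusted p = 0.302 and 0.249).

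Atf6 and Eif2ak3, which encodes PERK, gave dim signals, detected on 17 and 14 of the 22 arrays. Atf6 was at 4.58, 4.85, 5.02, 5.05 and 5.22 in WT_untreated, 4.45, 4.50, 4.73, 5.05 and 5.15 in WT_antibiotic, 4.53 to 6.17 with a median of 5.43 in KO_untreated and 4.39 to 5.19 with a median of 4.83 in KO_antibiotic. Its KO_untreated arrays spread the most, and no difference passed (log2 0.41, SE 0.22, adjusted p = 0.226 for KO minus WT). Eif2ak3 was at 4.49, 4.62, 4.71, 4.78 and 4.91 in WT_untreated and 4.52, 4.52, 4.74, 4.94 and 5.01 in WT_antibiotic. It was at 4.75 to 5.36 with a median of 5.05 in KO_untreated and 4.6 to 5.26 with a median of 4.84 in KO_antibiotic, and the groups overlapped (log2 0.35, SE 0.15, adjusted p = 0.121 for KO minus WT). At these levels changes of this size were within the intervals, -0.053 to 0.88 for Atf6 and 0.043 to 0.66 for Eif2ak3.

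All 8 tested genes of the ATF4 arm had positive KO minus WT differences in untreated mice, as did 5978 of all 10705 genes. Of the 8, 4 rose in KO_untreated (6.27% of all genes), the amino acid and glutathione genes Asns, Chac1, Psat1 and Phgdh. The same 4 fell in KO_antibiotic (8.6% of all genes), and Asns and Chac1 fell in WT_antibiotic (2.91%). Atf4, a factor controlled largely at translation, was at 10.52, 10.81, 11.01, 11.03 and 11.24 in WT_untreated and 10.93 to 11.46 with a median of 11.10 in KO_untreated, with overlap (log2 0.23, SE 0.16, adjusted p = 0.338). With antibiotics Atf4 was at 10.45, 10.50, 10.89, 10.98 and 11.14 in WT and 10.59 to 11.23 with a median of 10.84 in KO, with differences of -0.13 and -0.25 (adjusted p = 0.721 and 0.343). Its second probe gave a KO minus WT of 0.41 in untreated mice (adjusted p = 0.121).

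Asns encodes asparagine synthetase. Its levels were 9.21, 9.43, 9.45, 9.68 and 10.06 in WT_untreated and 10.03 to 10.81 with a median of 10.43 in KO_untreated, where the highest WT array, number 3, exceeded the lowest KO array. The rise was 1.84-fold (log2 0.88, SE 0.17, adjusted p = 0.00389). With antibiotics Asns stood at 8.35, 8.76, 8.83, 8.93 and 9.06 in WT (log2 -0.78, SE 0.17, adjusted p = 0.0111) and 8.69 to 9.23 with a median of 9.01 in KO (log2 -1.45, SE 0.16, adjusted p = 2.19e-06), and in both genotypes no antibiotic array reached an untreated one. All 3 of its probes passed in the same direction in both KO comparisons.

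Chac1, which encodes an enzyme that breaks down glutathione, had the largest differences of the 35 genes in these comparisons. It was at 5.98, 7.16, 7.37, 7.88 and 7.96 in WT_untreated and 7.97 to 9.18 with a median of 8.60 in KO_untreated, the lowest of the latter just above the highest of the former (log2 1.33, SE 0.35, adjusted p = 0.0217, 2.52-fold). The rise was lost without any one of WT_untreated 2 or KO_untreated 5, with an adjusted p of up to 0.0606. In WT_antibiotic Chac1 was at 4.91, 4.96, 5.13, 5.24 and 5.90, below all untreated arrays, a fall of 4.12-fold (log2 -2.04, SE 0.37, adjusted p = 0.00217). In KO_antibiotic it was at 4.87 to 7.08 with a median of 6.02, a fall of 6.5-fold without overlap (log2 -2.70, SE 0.34, adjusted p = 9.48e-06).

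Psat1 and Phgdh encode enzymes of serine synthesis. Psat1 was at 5.88, 6.41, 6.44, 6.85 and 7.78 in WT_untreated and 7.25 to 8.34 with a median of 7.72 in KO_untreated, with WT_untreated 3 inside the KO range (log2 1.10, SE 0.28, adjusted p = 0.0178, lost without KO_untreated 1 with an adjusted p of 0.0504). In KO_antibiotic Psat1 was at 5.71 to 7.24 with a median of 6.27 (log2 -1.37, SE 0.27, adjusted p = 0.00102), just below the KO_untreated arrays, and in WT_antibiotic at 5.73, 5.98, 6.32, 6.34 and 6.36 (log2 -0.53, SE 0.29, adjusted p = 0.334). Phgdh was at 5.02, 5.41, 5.62, 5.73 and 5.98 in WT_untreated and 5.76 to 7.05 with a median of 6.47 in KO_untreated, where KO_untreated 2 was the lowest and inside the WT range (log2 0.90, SE 0.20, adjusted p = 0.0105). It was at 4.79, 4.88, 4.96, 5.02 and 5.11 in WT_antibiotic (log2 -0.60, SE 0.21, adjusted p = 0.104) and 4.81 to 5.75 with a median of 5.07 in KO_antibiotic, below all KO_untreated arrays (log2 -1.23, SE 0.19, adjusted p = 0.000115). Its 2 calls held in all 12 settings other than leaving out an array, and with KO_untreated 1 as the only KO array it was the 1 gene of the 35 to rise.

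Ddit3, which encodes the stress factor CHOP, was at 6.67, 6.75, 6.84, 7.31 and 7.45 in WT_untreated and 7.11 to 7.91 with a median of 7.31 in KO_untreated (log2 0.40, SE 0.19, adjusted p = 0.158). In WT_antibiotic it was at 6.96, 7.25, 7.50, 7.68 and 7.76 (log2 0.43, SE 0.20, adjusted p = 0.229) and in KO_antibiotic at 6.67 to 7.47 with a median of 7.25 (log2 -0.21, SE 0.18, adjusted p = 0.533). All groups overlapped, and its antibiotic difference in WT was the most positive of the 35 genes. Trib3, a pseudokinase induced by ATF4 and CHOP, was detected on 9 arrays and passed in no comparison (0.51, adjusted p = 0.23, in untreated mice). Ppp1r15a (GADD34), which reverses the block of translation, differed by -0.13 to 0.21 and did not pass.

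Between KO and WT under antibiotics none of the 35 genes passed the test. The 3 genes with the smallest p between KO_antibiotic and WT_antibiotic were Sel1l (log2 0.41, SE 0.15, adjusted p = 1), Dnajc3 (log2 -0.62, SE 0.26, adjusted p = 1) and Chac1 (log2 0.68, SE 0.35, adjusted p = 1), none past the threshold. For Hyou1 the difference was 0.029 (95% interval -0.39 to 0.44), and for Creld2 0.13 (-0.30 to 0.57), and in both the groups overlapped. The test of whether antibiotics acted differently in KO and WT passed for 0 of the 35 genes and 0 of all 10705, while 12 of the 35, all with negative differences, and 960 of the 10705 had an unadjusted p under 0.05 by limma. The smallest p belonged to Hyou1 (log2 -1.07, SE 0.28, adjusted p = 0.341), Sdf2l1 (log2 -1.02, SE 0.33, adjusted p = 0.465) and Creld2 (log2 -0.93, SE 0.30, adjusted p = 0.465). So the count of 18 against 9 falls does not show that KO responded more.

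Neighbouring steps of secretion were followed in 7 further gene lists. Among 21 tested genes of N-glycosylation and lectin quality control, 6 rose in KO_untreated and 0 fell (12% of all genes changed). In KO_antibiotic 0 rose and 14 fell (14.8% of all genes changed). They included Ddost (log2 0.71, SE 0.16, adjusted p = 0.0114 for KO minus WT, -0.91 with antibiotics in KO) and Rpn2 (-0.83, adjusted p = 4.89e-05), subunits of the enzyme that attaches the glycan, and Krtcap2 (-0.84). In WT_antibiotic 3 fell (14.3% of the list, where 5.57% of all genes changed), with Stt3a, the catalytic subunit, at -0.93 (adjusted p = 0.00245). The list's median was 0.34 in untreated mice and -0.54 with antibiotics in KO.

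Of 25 other folding genes, 6 rose and 0 fell in KO_untreated, 5 fell in WT_antibiotic and 11 fell in KO_antibiotic. These were 24%, 20% and 44% of the list, against 12%, 5.57% and 14.8% of all genes. Fkbp11, a prolyl isomerase of secretory cells, changed by 1.58 (SE 0.26, adjusted p = 0.00131), by -1.95 with antibiotics in WT and by -2.98 in KO (adjusted p = 5.96e-08). Sil1, another exchange factor of BiP, rose by 0.84 (adjusted p = 0.00735). The peroxidase gene Prdx4 and the isomerase gene Txndc5 fell with antibiotics, by 1.20 and 0.86 on the log2 scale in WT. In KO, Prdx4 fell by 1.73 and Txndc5 fell by 1.10 on that scale.

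Proteins enter the ER through the translocation machinery. Of its 23 tested genes, 2 rose in KO_untreated, Ssr2 (log2 0.67, SE 0.14, adjusted p = 0.00741) and Sec61a1, the channel subunit (log2 0.66, SE 0.15, adjusted p = 0.0121), and 1 fell, Srp54a of the signal recognition particle (-1.31), together 13% of the list, near the 12% of all genes. In KO_antibiotic 5 fell (21.7% of the list, where 14.8% of all genes changed), Ssr2 by 2.09-fold and Sec61a1 by 2.01-fold. Of 21 other degradation genes, 1 fell in untreated KO, the conjugating enzyme gene Ube2g1 (-0.79), and 1 in KO_antibiotic, the extraction ATPase gene Vcp (-0.66) (4.76% of the list each time, where 12% and 14.8% of all genes changed).

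Of 22 other sensors, factors and feedback genes, 5 rose and 1 fell in KO_untreated (27.3% of the list, where 12% of all genes changed). Creb3l4, a membrane-bound factor related to ATF6, rose (log2 0.91, SE 0.22, adjusted p = 0.0142) and fell in KO_antibiotic (-0.94), and Atf6b and Atf5 rose (0.57 and 0.74). In KO_antibiotic 3 rose and 3 fell (27.3% of the list, where 14.8% of all genes changed). The antioxidant factor gene Nfe2l2 (0.97) and the death gene Bcl2l11 (0.84) were among those that rose. Bcl2l11 also rose in WT_antibiotic (0.74), where the stress gene Nupr1 fell (-1.08). Together they were 9.09% of the list, where 5.57% of all genes changed.

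Of 18 other tested ATF4 targets of amino acid supply, 5 rose and 1 fell in KO_untreated, 2 fell in WT_antibiotic, and 1 rose and 6 fell in KO_antibiotic. These were 33.3%, 11.1% and 38.9% of the list, against 12%, 5.57% and 14.8% of all genes. Mthfd2, a folate enzyme of mitochondria, changed by 0.98 (adjusted p = 0.00634), -1.05 (adjusted p = 0.00452) and -1.74 (adjusted p = 2.19e-06) in the 3 comparisons. Aldh18a1, of proline synthesis, and Slc6a9, a glycine transporter, rose by 0.84 and 0.57 in KO_untreated. Of 18 cytosolic tRNA synthetases, 4 rose and 0 fell in KO_untreated (22.2%), led by Sars (0.69), Kars (0.60) and Tars (0.53). In KO_antibiotic 8 of the 18 fell (44.4%), led by Vars (-1.26), Wars (-1.20) and Nars (-0.58). In WT_antibiotic 1 did, Gars (-0.49), 5.56% of the list where 5.57% of all genes changed. In none of the 7 lists did a gene pass between KO_antibiotic and WT_antibiotic.

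**Figure D5:**
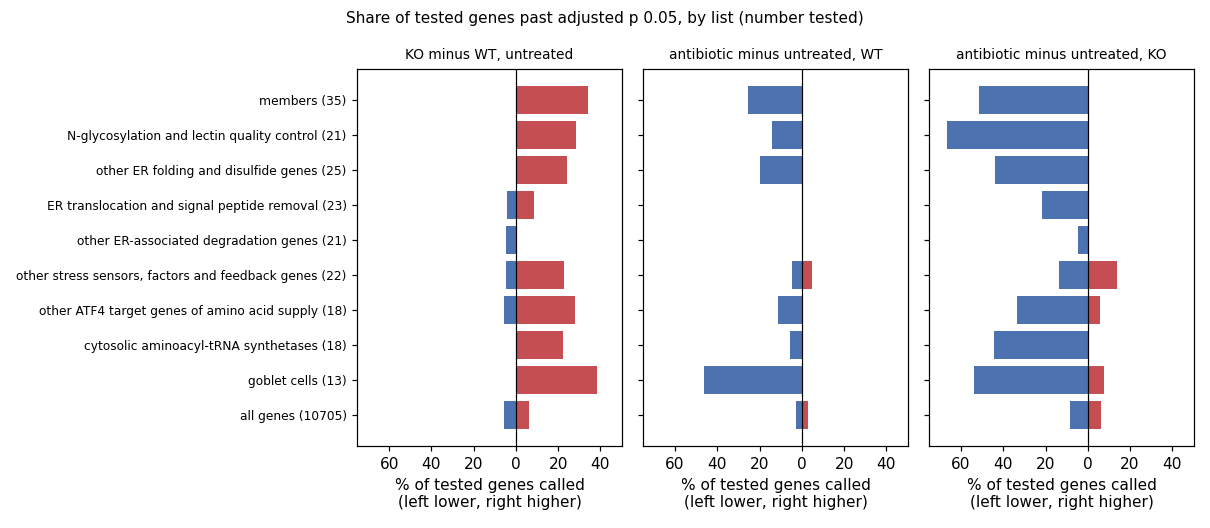
Percentage of the tested genes of each list (rows, number tested in brackets) that passed an adjusted p of 0.05 in 3 comparisons (panels), with lower genes to the left in blue and higher genes to the right in red. The ER and ATF4 genes reach 34.3%, 25.7% and 51.4% in the 3 panels, against 12%, 5.57% and 14.8% of all genes in both directions together.

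Markers of secretory cell types moved in the same comparisons. Of 13 tested goblet cell markers, 5 rose and 0 fell in KO_untreated, 6 fell in WT_antibiotic, and 1 rose and 7 fell in KO_antibiotic. These were 38.5%, 46.2% and 61.5% of the tested markers, against 12%, 5.57% and 14.8% of all genes. Spink4, a goblet peptide, changed by 1.3, -1.5 and -2.53, and the goblet factor gene Foxa3 by 0.71 in KO_untreated and -1.0 in KO_antibiotic. The brightest markers, Zg16, Muc2 and Clca1, had group means between 13.86 and 14.75, and neither Zg16 nor Muc2 passed in any comparison. Tff3, a goblet trefoil peptide, was the 1 marker that rose in KO_antibiotic (0.52, adjusted p = 0.0451). The summed linear signal of the list ran from 129698 to 154441 in KO_untreated, above the 87165 to 120577 of WT_untreated and the 75874 to 108280 of KO_antibiotic, and was 80451 to 98722 in WT_antibiotic. The sum does not describe every marker: Retnlb, named after its values were seen, had group means of 12.51 in WT_untreated and 14.56 in KO_untreated, and Spink4 of 12.83 and 14.13, while Zg16 and Muc2 differed by 0.048 and 0.088. Atoh1 and Fcgbp were detected on no array, and Agr2 belongs to this list and to the folding genes. In whole epithelium, fewer cells of a type and less RNA per cell cannot be told apart, and the part of goblet cells in the results above was not tested.

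Plasma cells also hold much folding machinery. For the counts below, 12% of all genes changed in KO_untreated, 5.57% in WT_antibiotic and 14.8% in KO_antibiotic. Sdc1, Mzb1, Cd79b and Pou2af1 were detected on at least 5 arrays of every group, with group means of 5.80 to 7.98, while Jchain, Tnfrsf17, Prdm1 and Slamf7 were detected on no array, and 0 of the 5 tested plasma and B cell markers changed in any comparison. Every sum here and above takes all markers of its list with a probe, tested or not. These were 15 goblet, 11 plasma and B cell, 8 Paneth, 12 mast cell, 15 exocrine pancreas and 13 epithelial genes. The plasma and B cell sum was 588 to 797 in WT_untreated, 353 to 941 in KO_untreated, 631 to 802 in WT_antibiotic and 826 to 1205 in KO_antibiotic. Of 7 tested Paneth markers, 2 rose in KO_untreated (28.6%), Defa3 and Defa20, and 3 fell in KO_antibiotic (42.9%). The Paneth sum was 13381 to 25429 in KO_untreated, 487 to 18766 in WT_untreated, 274 to 994 in WT_antibiotic and 562 to 5394 in KO_antibiotic. It does not describe every marker and rests mostly on the brightest. Ang4 had group means of 11.13 in WT_untreated and 13.93 in KO_untreated, and Itln1 of 9.07 and 11.64. Lyz1 had 7.62 and 7.49, while 6 of the 7 tested markers had positive differences. Of 8 tested mast cell markers, 5 rose in KO_untreated (62.5%) and 7 fell in KO_antibiotic (87.5%). The mast cell sums were 1428 to 4662 in KO_untreated, 627 to 1361 in WT_untreated, 535 to 909 in WT_antibiotic and 482 to 1009 in KO_antibiotic. Of 9 tested exocrine pancreas markers, 2 rose in KO_untreated (22.2%), and 5 of the 9 differences were positive. In WT_antibiotic 1 rose and 1 fell (22.2%), and in KO_antibiotic 1 rose and 3 fell (44.4%). Pnliprp2 had group means of 8.40 in WT_untreated and 12.07 in KO_untreated, and Clps of 9.29 and 11.52. Amy2a5 (6.15 and 4.48) and Cela2a (5.97 and 4.64) went the other way. Try4, Try5, Ctrb1, Cpa1, Prss2 and Cel were each detected on 1 WT_untreated, 2 WT_antibiotic and 0 KO arrays. The sums of that list overlapped between the untreated groups (6111 to 18397 in KO and 1967 to 22413 in WT). They were 2476 to 4466 in KO_antibiotic and 3484 to 17081 in WT_antibiotic. T cell markers gave 0 changes of 7 in KO_untreated and 1 fall in KO_antibiotic, Cd8b1 (-0.78), 14.3% of the list and near the 14.8% of all genes. Of 5 tested markers of stroma, muscle and endothelium, 1 rose and 1 fell in KO_untreated (40%), and 1 fell in KO_antibiotic (20%). Dcn had group means of 6.53 in WT_untreated and 5.26 in KO_untreated, and Vwf of 5.40 and 6.52. Of 4 tested macrophage and dendritic cell markers, 0 changed in KO_untreated and 1 fell in KO_antibiotic (25%). The epithelial list had sums of 76330 to 89653 in KO_untreated and 82239 to 99651 in WT_untreated, with 1 of 13 markers (7.69%), Krt18, higher. The part of these cells in the ER results was not tested either.

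Genes that changed and genes that did not both held the promoter elements. The ER stress response element stood in 5 of the 17 genes with a window that passed the test in untreated mice or with antibiotics in KO, in 3 of the 14 that did not, and in 2 of the 4 untested. Those 3 were Dnajc3, Hsp90b1 and Ero1b, the last of which fell in WT_antibiotic. The CARE element stood in 3 of the 17, Asns, Chac1 and Herpud1, and in 1 of the 14, Trib3. The element TGACGTGG, which XBP1 binds, was in 0 of the 35 windows and in 0.714% of all, which says only that these letters are not in the windows searched.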

How the data were processed

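RNA of colon epithelium was measured on 22 Illumina bead arrays, 1 per sample. The authors deposited a non-normalised table of bead intensity with a detection p-value for each of 45281 probes and array, per the file headers, and a second table of processed intensity. For both, the sources used here do not give the software, and the second table's normalisation was read from its values and used only as an alternative. Samples were grouped by the genotype and treatment in their titles. The 40 genes, the other lists and the tests were chosen with earlier results of these data known.

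Background was corrected with neqc (offset 16, from the deposited detection p-values), arrays were quantile normalised, and values are log2 intensities on that scale. The offset compresses differences of dim probes. Probes detected (p under 0.05) on at least 5 arrays, 19993 in all, were fitted in limma 3.58.1 (R 4.3.3) with 1 mean per group, and p-values, two-sided, were adjusted by the Benjamini-Hochberg method over those probes. "Adjusted p" means this value, its threshold is 0.05, and intervals are 95% intervals of the fit. All 35 tested genes would also pass the filter without KO_untreated. Probes were named from the platform's annotation updated through RefSeq: 34885 carried 1 symbol, 18 several and 10378 none. The levels of different probes are not compared.

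Per-array values are given for the sensors, Atf4, Ddit3, Hspa5 and up to 10 genes past the threshold with the smallest p in each comparison, and further lists name up to 3 such genes. Replicate numbers did not pair the samples. The alternatives were another background correction, scaling, filter, probe rule, array weights, a replicate block, fits of fewer groups, and each array left out. The fit was also run on simulated data with known changes, whose outcome is not given here and supports no result above. The number of arrays limits the precision, with a median SE of 0.177 over all tested probes for KO minus WT in untreated mice.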

Additional observations from a re-analysis of the deposited data

Results flagged for a closer look

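In 140 checks of a gene's highest or lowest array against the others of its group, 9 stood far from the rest, and chance alone flags about 1 in 20 groups. Creld2 stood out in both KO groups. Its level of 10.80 on KO_untreated 6 lay above the next at 10.23, and its level of 8.03 on KO_antibiotic 4 lay below the next at 8.37. Dnajc3 was low on KO_untreated 1 with 6.54, where the next was 7.09, and on WT_antibiotic 2 with 6.54, where the next was 7.27. These 2 arrays had the fewest detected probes of their groups (16366 and 16100). Manf was high on WT_antibiotic 2 with 5.04 against 4.70. Xbp1 was low on WT_untreated 4 with 10.92 against 11.27, and Selenos was high on WT_untreated 3 with 10.48 against 10.10. In KO_antibiotic, Ddit3 was low on array 5 with 6.67 against 7.18, and Trib3 was high on array 2 with 6.10 against 4.82.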

How the results depend on the processing

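Counts of the 35 genes past the threshold moved most with scaling and with 1 array. KO minus WT in untreated mice gave 12 genes, 6 with median scaling over all probes and 1, Phgdh, with KO_untreated 1 as the only KO array, and 8 to 15 with single arrays left out (8 without WT_untreated 2 or KO_untreated 5, 15 without WT_untreated 3). Antibiotics in WT gave 9, 1 with median scaling over all probes (Chac1), 5 with scaling over probes detected on all arrays, 15 with array weights (14 lower and Ddit3 higher), and 3 to 11 with arrays left out (3 without WT_untreated 3 or WT_antibiotic 1 or 5). Antibiotics in KO gave 18, 5 with KO_untreated 1 as the only untreated array, and 17 to 21 with arrays left out. A lone array is assumed to vary like the other groups. The share of all genes past the threshold moved as well. With median scaling over all probes it was 1.8% for KO minus WT in untreated mice (12% in the main fit). For antibiotics in WT (5.57% in the main fit) it was 1.49% with that scaling. It was 3.84% there with scaling over probes detected on all arrays and 12.8% with array weights. The counts of the 35 genes for KO minus WT under antibiotics and for the interaction stayed at 0 throughout, also with arrays left out (0 to 0). The other 53 such counts were within 1.5 times of those reported. With median scaling over all probes the median difference of all tested probes was at most 0.099 in size. Some directions turned. Ern1 with antibiotics in WT was -0.024 with median scaling over all probes and -0.067 to 0.16 with arrays left out, Eif2ak3 was -0.021 to 0.10, and Atf4 was 0.029 with probes averaged per gene. With KO_untreated 1 alone, KO minus WT was -0.25 for Ern2, -0.41 for Atf6 and -0.033 for Hspa5, and the antibiotic difference in KO was -0.23 for Ern1 and 0.29 for Atf6. The cause of these changes was not tested, beyond the fewer arrays of that fit. Dim genes (Atf6, Eif2ak3, Manf, Trib3) are limited by signal over background. The files name no slides, so slide could not serve as a block.

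Replicate numbers occur in all groups, but same-numbered arrays did not deviate together (r of deviations -0.38 to 0.53 over 31 pairs, and 4 of 22 arrays correlated best with their own number). With the replicate block the counts were 13 (12 higher and Dnajc3 lower), 0, 9 and 19, and 0 for the interaction. Of all genes 17.4%, 0.0187%, 5.69%, 14.7% and 0% passed, in the same order.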

Other observations

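A set of ER genes varied between arrays of the same group in another way than Hyou1, Sdf2l1 and Creld2, and was chosen after the values were seen. In KO_antibiotic, Hsp90b1 was at 9.22, 9.01 and 9.14 on arrays 1, 2 and 3 and at 9.93, 10.84 and 10.86 on arrays 4, 5 and 6. Dnajc3 was at 6.14, 6.48 and 5.67 on the first of these sets and at 7.24, 7.06 and 7.08 on the other, and Pdia3 at 10.01, 10.15 and 10.04 and 10.60, 11.48 and 11.05. Creld2 did not split these arrays (8.52, 8.56 and 8.52 against 8.03, 8.56 and 8.37). The same 3 genes were each lowest in KO_untreated on array 1 (9.88, 6.54 and 10.62) and highest in WT_untreated on array 3 (12.09, 8.48 and 11.76). They were also lowest in WT_antibiotic on array 2 (9.01, 6.54 and 10.10). Detected probes numbered 15975, 16624 and 16764 on KO_antibiotic 1, 2 and 3, against 18343, 18323 and 17675 on 4, 5 and 6. KO_untreated 1 (16366) and WT_antibiotic 2 (16100) had the fewest of their groups, and WT_untreated 3 (18367) the most. Not every array followed: WT_untreated 2, with 18195, had the lowest Hsp90b1 of its group (10.65). Whether the pattern goes with the number of detected probes was not tested. None of these 3 genes passed the test in the comparisons above, although Dnajc3 did under the other settings already named.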
